A study of Macaca fascicularis with 32 samples.

Results

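Spiny projection neurons of the control putamen were compared with those of the control caudate nucleus, nucleus by nucleus and gene by gene. Members were chosen by their PDE10A counts: every barcode with at least 2000 UMIs (unique molecular identifiers, each counted as 1 captured RNA molecule) and at least 10 UMIs of PDE10A was taken. This gave 4563 of 10389 barcodes in the control putamen library and 4589 of 9797 in the control caudate library, 9152 of the 56659 barcodes in the series. The nuclei came from brains of cynomolgus macaques. The groups used here were PUT_CT (putamen, treatment CT) and CN_CT (written "Caudal nucleus" in the labels, treatment CT), with 8 labelled samples each, and PUT_PD and CN_PD (treatment PD, 4 labelled samples each), a model of Parkinson's disease in which animals were given an AAV vector for α-synuclein plus poly(ADP-ribose). The labels do not say what the CT animals received, nor whether putamen and caudate samples came from the same animals. Each group was deposited as 1 pooled set of barcodes with no map to samples or animals, so each library counted as 1 sample, no test between regions was possible, and region cannot be told apart from library. All intervals below are 95% and cover counting error only.

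Spiny projection neurons are the GABA-releasing output cells of the striatum. Those of the direct pathway carry the dopamine receptor DRD1 and substance P (TAC1), and those of the indirect pathway carry DRD2, enkephalin (PENK) and the adenosine receptor ADORA2A. In primates the internal capsule divides the dorsal striatum into the putamen, which receives much of the sensorimotor cortical input, and the caudate nucleus, which receives much of the associative input. PDE10A, the phosphodiesterase used to choose the nuclei, degrades cAMP and cGMP and is concentrated in these neurons.

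The selected nuclei had a median of 4985 UMIs in putamen and 4598 in caudate, and held 25241396 and 22595645 UMIs in all. Their median PDE10A count was 32 in putamen and 19 in caudate. The threshold therefore lay differently in the 2 libraries. In putamen, 51 nuclei had 8 or 9 PDE10A UMIs, just outside it, and 72 had 10 or 11. In caudate, the same ranges held 430 and 485 nuclei. PDE10A itself chose the nuclei and its level is no finding. Of the member barcodes, 6 were shared in sequence between PUT_CT and CN_CT.

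The label was checked against other spiny-neuron markers, with barcodes that carried oligodendrocyte markers as cells that should lack them. BCL11B, a transcription factor of spiny neurons, was at 477.8 CPM (counts per 1000000 UMIs of the selected nuclei) in putamen and 343.3 in caudate nuclei, against 17.0 and 24.4 in oligodendrocyte-marker barcodes. PPP1R1B, which encodes DARPP-32, was at 270.0 and 214.3 against 86.6 and 36.6. RGS9 was at 363.2 and 284.2 against 51.0 and 40.7. The label held for these genes, although DRD1 had just 51 UMIs in each library. In these bulk sums over nuclei, fewer nuclei with a transcript and less of it per nucleus cannot be told apart.

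The libraries did not differ in spiny-neuron RNA alone. Oligodendrocyte markers made up 0.0843% of the UMIs of the selected putamen nuclei and 0.0271% of those in caudate, and 12.9% against 48.0% of the nuclei had none of the 8. All 8 of 8, among them MBP, MOBP and MOG, were at least 2-fold higher in putamen. MBP, a myelin protein, was at 332.5 CPM in putamen and 110.9 in caudate, and at 7082 and 5956 in oligodendrocyte-marker barcodes. The putamen library held 916 such barcodes with 1765918 UMIs, and the caudate library 110 with 245614. Low levels in the caudate barcodes, such as that of BCL11B above, therefore rest on few UMIs. Interneuron markers also made up 0.0150% against 0.00721% of the UMIs, with SLC18A3 at 0 in caudate. Of the 6 measured, 4 were higher and 2 lower in putamen. NOS1 and PTHLH were 2-fold higher in putamen, as were 1.92% of all 12483 genes compared below. The 6 summed to 145.9 CPM in putamen and 68.0 in caudate, of which NOS1 made up 98.8 and 32.9. Microglial markers summed to 34.5 CPM in putamen and 20.2 in caudate, with 5 of 5 measured higher in putamen and C3 past 2-fold. Astrocyte markers summed to 136.4 and 172.8, with 3 of 3 measured lower in putamen. The part of these RNAs in the gene counts below was not tested beyond the values given.

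Most genes lay at similar levels in both regions, and a small set differed strongly. Among the 12483 genes whose UMIs summed to 100 or more across the pair of libraries, 240 (1.92%) were at least 2-fold higher in putamen and 228 (1.83%) at least 2-fold higher in caudate. Of the 240, 155 (64.6%) were also more than 2-fold higher in oligodendrocyte-marker barcodes than in spiny-neuron nuclei of the putamen, leaving 85. Of the 228 higher in caudate, 33 (14.5%) were so placed in the caudate library, leaving 195.

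TESPA1, first described in T cell receptor signalling, had the widest gap among the genes higher in putamen. It had 2457 UMIs in putamen and 95 in caudate, 97.3 against 4.20 CPM, a ratio of 23.0 (18.9 to 28.7). Both PD libraries showed the same order, with 106.2 in putamen and 2.24 in caudate. With every nucleus thinned to 2000 UMIs, 17.0% of putamen and 0.676% of caudate nuclei held a TESPA1 UMI, against 2.97% of 269 and 0 of 49 oligodendrocyte-marker barcodes deep enough to thin, where 0 allows a share of up to 6.12%.

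SNTG2, a syntrophin that scaffolds membrane proteins, was the most highly counted of the 15 leading putamen genes. Its level was 1081 CPM in putamen and 160.6 in caudate (ratio 6.73, 6.50 to 6.97), and 1154 and 130.9 in the PD libraries. It was counted in 84.4% of thinned putamen nuclei and 24.2% of thinned caudate nuclei. In oligodendrocyte-marker barcodes that share was 10.0% and 4.08%.

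Developmental regulators were among the leaders. GLI3, a transcription factor of hedgehog signalling, was at 75.6 CPM in putamen and 9.07 in caudate (8.31-fold, 7.21 to 9.67). The PD libraries had 65.7 and 5.17. In oligodendrocyte-marker barcodes it was at 23.8 in putamen and 52.9 in caudate, the opposite order. The caudate value rests on few UMIs, since those barcodes held 245614 in all. SOX5, a SoxD transcription factor, was at 104.1 and 25.5 (4.08-fold), and the secreted ligand WNT16 at 13.3 and 1.46 (8.97-fold, 6.35 to 13.4). Both kept this order in the PD libraries, with SOX5 at 122.9 and 20.3 and WNT16 at 12.9 and 2.64.

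Surface and matrix genes were a further group. The transmembrane collagen COL25A1 was at 271.0 CPM in putamen and 60.1 in caudate (4.51-fold, 4.25 to 4.78). The adhesion receptor ADGRG7 was at 42.2 and 5.58, the aggrecan-cleaving protease ADAMTS5 at 4.95 and 0.752, and the adhesion molecule SDK2 at 36.1 and 8.28. KCNK13, a background potassium channel, was at 36.2 and 9.03. These 5 genes were also higher in putamen in the PD libraries.

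The remaining leaders are better known from other tissues. SOHLH1, a germ-cell transcription factor, was at 10.8 CPM in putamen and 1.15 in caudate. The keratin KRT77 was at 5.19 and 0.531, and PMFBP1, a sperm structural gene, at 50.4 and 13.5. CRYAB, a small heat shock protein, was at 24.3 and 6.24, and ITM2A, a membrane protein, at 7.73 and 1.73. For both of these, oligodendrocyte-marker barcodes held more than the spiny-neuron nuclei: CRYAB was at 101.4 and ITM2A at 37.9 CPM in the putamen.

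In the other direction, the serotonin receptor HTR2C stood out. It had 487 UMIs in putamen and 6959 in caudate, 19.3 against 308.0 CPM, a ratio of 15.9 (14.6 to 17.5) in favour of caudate. The PD libraries had 5.66 and 312.4. After thinning, 31.3% of caudate nuclei and 2.65% of putamen nuclei held an HTR2C UMI, with 4.08% and 0.743% of oligodendrocyte-marker barcodes.

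The prodynorphin gene PDYN, which encodes the dynorphin opioid peptides, was counted mostly in caudate, with 298 UMIs there and 34 in putamen. This was 13.2 against 1.35 CPM (9.67-fold, 6.85 to 14.4). The PD libraries had 11.4 in caudate and 1.77 in putamen. Of the 5 direct-pathway markers, PDYN alone passed 2-fold, and 3 of 5 were lower in putamen. Beside PDYN and ISL1, the other was DRD1, with 51 UMIs in each library, too few to compare. TAC1 was at 101.5 in putamen and 98.5 in caudate, EBF1 at 86.0 and 79.4, and ISL1, a transcription factor of direct-pathway neurons, at 6.73 and 10.4.

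Enzymes and matrix proteases were also found. GDA, guanine deaminase, was at 7.01 CPM in putamen and 65.1 in caudate (9.27-fold higher in caudate). AK5, an adenylate kinase of brain, was at 13.5 and 127.2, and TLL1, a tolloid-like metalloprotease, at 3.53 and 47.4. CROCC2, of the rootletin family, had 8 UMIs in putamen and 248 in caudate, and the kinase STYK1 had 6 and 98. Their ratios, 32.7 (17.3 to 81.1) and 16.9 (8.09 to 50.9), have wide intervals.

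Signalling adaptors and regulators completed the caudate group. RGS6, which speeds the shut-off of G proteins, was at 31.9 CPM in putamen and 181.9 in caudate. GULP1, an engulfment adaptor, was at 37.7 and 245.9. STAT4, a cytokine-activated transcription factor, was at 7.21 and 46.0, and EYA4, a transcriptional coactivator, at 5.82 and 45.5. EYA4 was higher still in oligodendrocyte-marker barcodes, at 68.5 in putamen and 150.6 in caudate. CDH10, a cadherin, was at 9.11 and 69.3, SYT10, a synaptotagmin, at 2.61 and 19.0, PALMD at 5.82 and 35.8, and CENPW, a centromere protein, at 1.58 and 15.3. The plot of levels in 4 libraries shows all 30 leading genes.

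**Figure D1:**
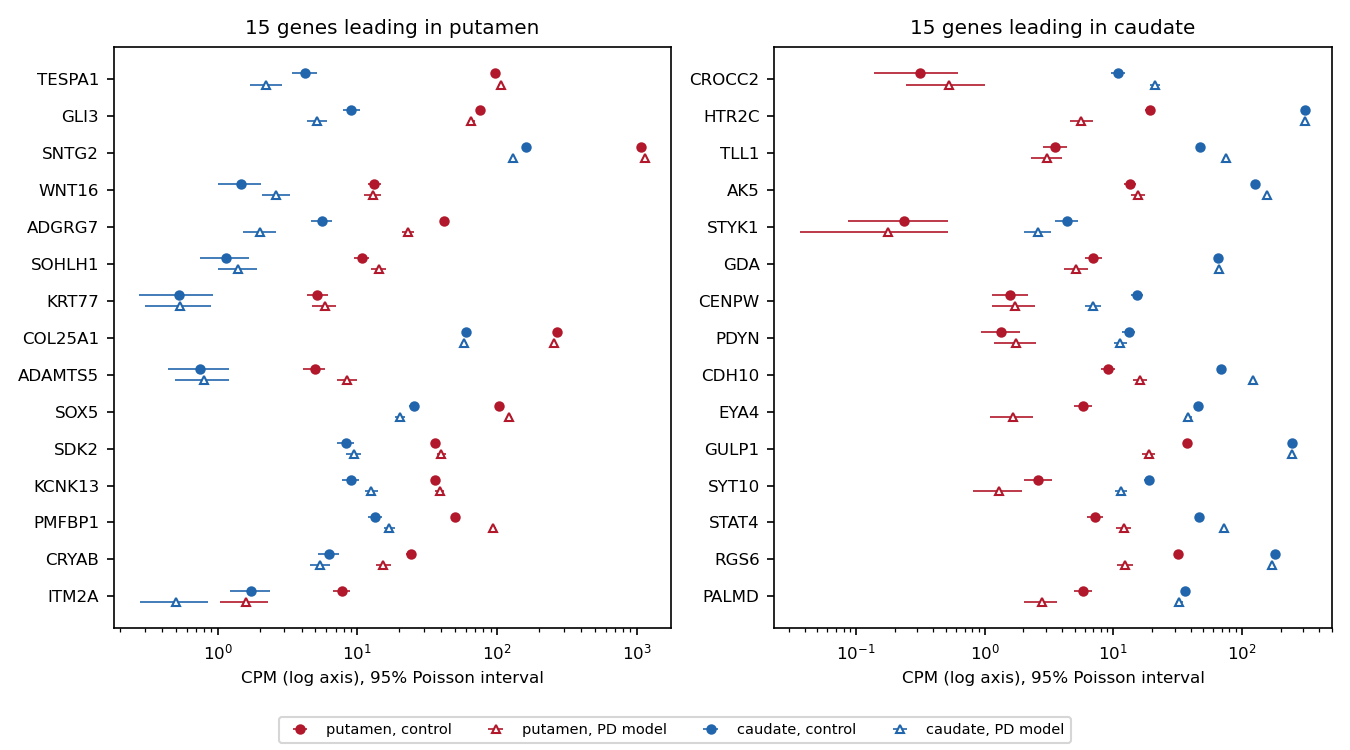
Level of each of the 15 leading genes per direction (rows) in CPM of the spiny-neuron nuclei (log axis, with 95% Poisson intervals for counting error), in the control (filled circles) and PD model (open triangles) libraries of putamen (red) and caudate (blue). For every gene, both libraries of the leading region lie above the library of the other region with the same treatment, as for HTR2C at 308.0 against 19.3 in the control pair.

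The PD model libraries gave a second pair of regions that shares no labelled sample with the control pair. In them, 1.8% of 12178 genes were at least 2-fold higher in putamen and 2.17% at least 2-fold higher in caudate. Of the 214 control calls for putamen that were measured in both pairs, 112 (52.3%) were also called in the PD pair, where they made up 54.6% of 205 calls. Of 201 control calls for caudate, 154 (76.6%) were called, 63.4% of 243. The sign was the same for 208 of 214 and 197 of 201 genes, and 0 were called in opposite directions. Across 11989 genes, the log2 ratios of the pairs had a Pearson correlation of 0.761 and a Spearman correlation of 0.604, given as a description, since genes are not independent and each pair has its own depth. All 15 leading genes of each direction were past 2-fold in the PD pair. Of these, STYK1 and ITM2A had just 75 and 41 UMIs there. The interval of ITM2A's log2 ratio, 0.67 to 2.70, reached below 2-fold. The oligodendrocyte markers differed in the same direction in the PD pair, at 0.0706% and 0.0360% of UMIs, with 4 of 8 past 2-fold.

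**Figure D2:**
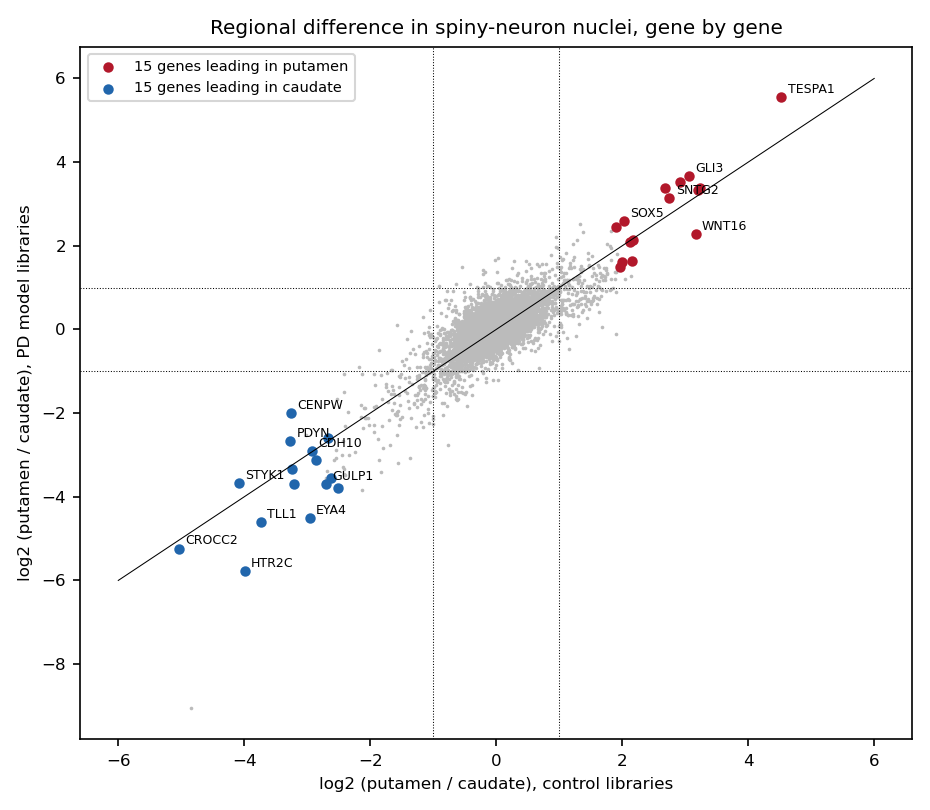
Each grey point is a gene with at least 100 UMIs in both pairs, and the leading genes are drawn at any count. Positions are log2 ratios of putamen over caudate in the control libraries (horizontal) and in the PD model libraries (vertical). Dotted lines mark 2-fold, and a solid line equal ratios. The 15 leading genes of each direction lie past 2-fold in both pairs, and the lowest point is a gene without a symbol that had 0 UMIs in the PD putamen.

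The leading genes also set single nuclei apart. In each nucleus thinned to 2000 UMIs, the UMIs of the 15 putamen genes and of the 15 caudate genes were summed. These genes were chosen on the control libraries, so the control shares are a description. Putamen genes outnumbered caudate genes in 91.4% of putamen and 13.6% of caudate nuclei. Caudate genes outnumbered putamen genes in 2.50% of putamen and 70.5% of caudate nuclei. In the PD libraries, which the choice did not use, putamen genes led in 92.8% of putamen and 10.5% of caudate nuclei, and caudate genes in 1.29% and 74.2%. The most counted genes, SNTG2 and HTR2C, were then left out. Mean putamen-gene UMIs per control putamen nucleus fell from 3.72 to 1.56, and mean caudate-gene UMIs per control caudate nucleus from 2.46 to 1.84. Without them, putamen genes led in 68.2% of control putamen nuclei and 7.47% of control caudate nuclei, and caudate genes in 7.19% and 70.8%. In the PD libraries, putamen genes then led in 70.5% of putamen and 6.32% of caudate nuclei, and caudate genes in 4.94% and 76.3%. The distributions overlapped but were centred on opposite sides of 0.

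**Figure D3:**
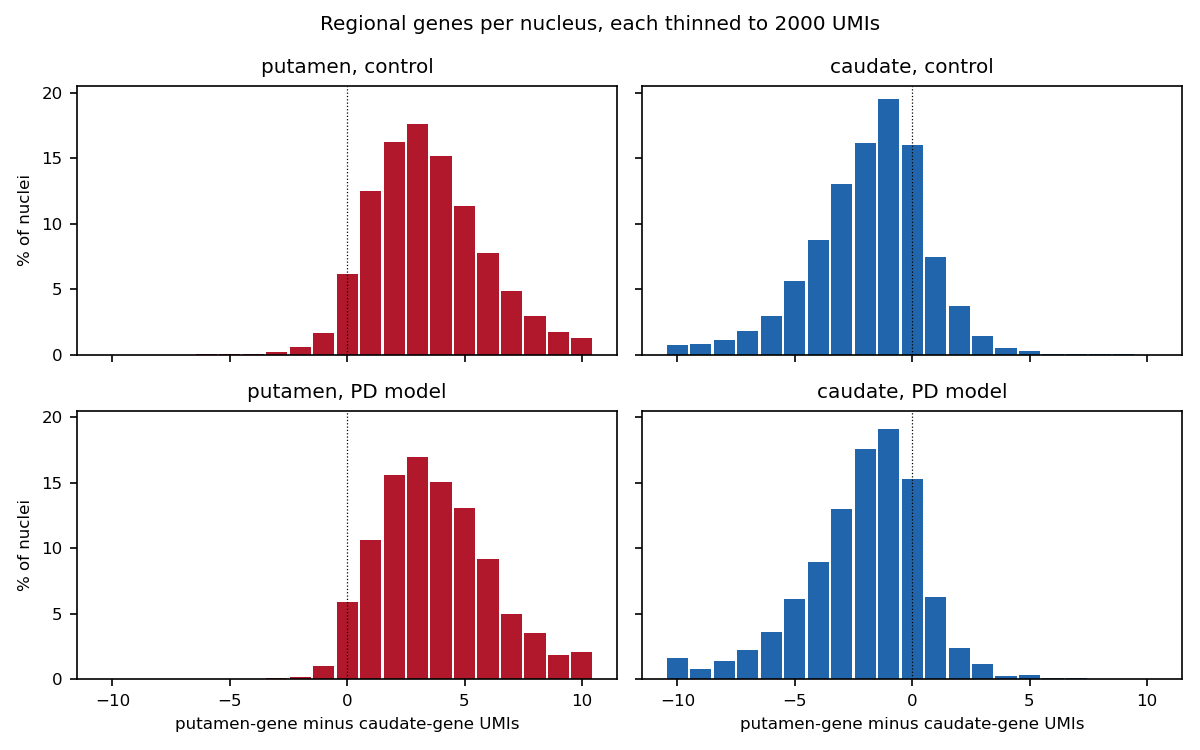
Share of spiny-neuron nuclei (vertical, %) by the UMIs of the 15 putamen genes minus those of the 15 caudate genes in each nucleus thinned to 2000 UMIs (horizontal, with the outermost bars holding all values beyond them), for the 4 libraries. In the control libraries 91.4% of putamen nuclei lie right of 0 and 70.5% of caudate nuclei left of it.

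Whether the regional genes belonged to 1 output pathway was examined by dividing the nuclei. The fixed markers alone resolved few of them, because most nuclei had under 5 marker UMIs: 69.9% of putamen and 84.3% of caudate nuclei stayed uncalled. The fixed direct range held 4.80% of putamen and 4.25% of caudate nuclei, and the fixed indirect range 21.8% and 9.24%. After thinning to equal depth, the indirect range held 1.49% and 0.501%. The nuclei were therefore divided by 21 other genes that differed between marker-defined direct and indirect nuclei in both PD libraries and lay within 2-fold between those regions, among them ERBB4, RELN and DSCAM on the direct side and FIG4, TTC12 and PTPRM on the indirect side. The division is a range on a likelihood score, with 3.81% of putamen and 7.84% of caudate nuclei left between the sides. Direct-like nuclei made up 46.8% (45.4 to 48.3) of the putamen and 47.4% (45.9 to 48.8) of the caudate nuclei, and indirect-like nuclei 49.4% (47.9 to 50.8) and 44.8% (43.4 to 46.3).

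Most fixed markers fell on the sides their names give. The dividing genes had been chosen because they differed between nuclei sorted by these markers in the PD libraries. The separation of the markers in the control libraries is therefore largely built in, and is no independent check of the division. In the putamen, EBF1 was at 164.8 CPM in direct-like and 8.12 in indirect-like nuclei, and in the caudate at 133.3 and 13.2. TAC1 was at 157.8 and 46.8 in the putamen, and 154.6 and 34.3 in the caudate. DRD2 was at 45.7 and 527.1 in the putamen, and 23.3 and 360.9 in the caudate, and ADORA2A was likewise higher on the indirect side. SIX3, a listed indirect-pathway marker, did not separate the sides, at 44.8 and 47.3 in the putamen.

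The regional difference appeared on both sides. In direct-like nuclei, 1.58% of 11096 genes were at least 2-fold higher in putamen and 1.63% in caudate. In indirect-like nuclei, these shares were 1.76% and 1.4% of 10878 genes. Of the putamen calls among genes measured on both sides, 129 were shared, 77.7% of the 166 direct-like and 68.3% of the 189 indirect-like calls. For caudate, 107 were shared, 69.9% of 153 and 72.3% of 148. 0 were called in opposite directions. All 15 putamen genes were past 2-fold on both sides, as were all 15 caudate genes except EYA4 on the direct-like side. These genes were chosen on the sums of the same control nuclei, so this is largely built in. The PD pair was not used to choose them. There, of the leading genes, KCNK13 and ITM2A alone were under 2-fold, both in direct-like nuclei, at log2 ratios of 0.34 and 0.93.

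A few genes had unequal regional differences between the sides. HTR2C was at 23.9 CPM in direct-like and 13.8 in indirect-like putamen nuclei, and at 218.8 and 409.1 in caudate nuclei. EYA4 reached 87.6 in indirect-like caudate nuclei, against 10.6 in direct-like caudate nuclei and 6.64 and 5.09 in the corresponding putamen nuclei. GULP1 was 53.7 against 236.9 between regions in direct-like nuclei and 21.3 against 257.3 in indirect-like nuclei. KCNK13 was at 29.8 in putamen and 13.2 in caudate among direct-like nuclei, and at 41.4 and 5.37 among indirect-like ones.

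BMPR1B, a bone morphogenetic protein receptor, was near level between regions in direct-like nuclei, at 23.6 CPM in putamen and 21.2 in caudate. In indirect-like nuclei it was at 33.7 and 9.45. ZFPM2, a cofactor of GATA factors, was lower in putamen than in caudate in direct-like nuclei (30.7 and 57.8) and higher in indirect-like ones (28.2 and 14.1). Of 8260 genes with at least 200 UMIs on each side, 18 had log2 ratios that differed by at least 1 between the sides in the control pair and 29 in the PD pair. In both, and with the same sign, were 9: HTR2C, GULP1, KCNK13, BMPR1B, ZFPM2, ADGRG7, KCNT2, PRICKLE1 and SPAG6. The difference between sides was not tested.

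**Figure D4:**
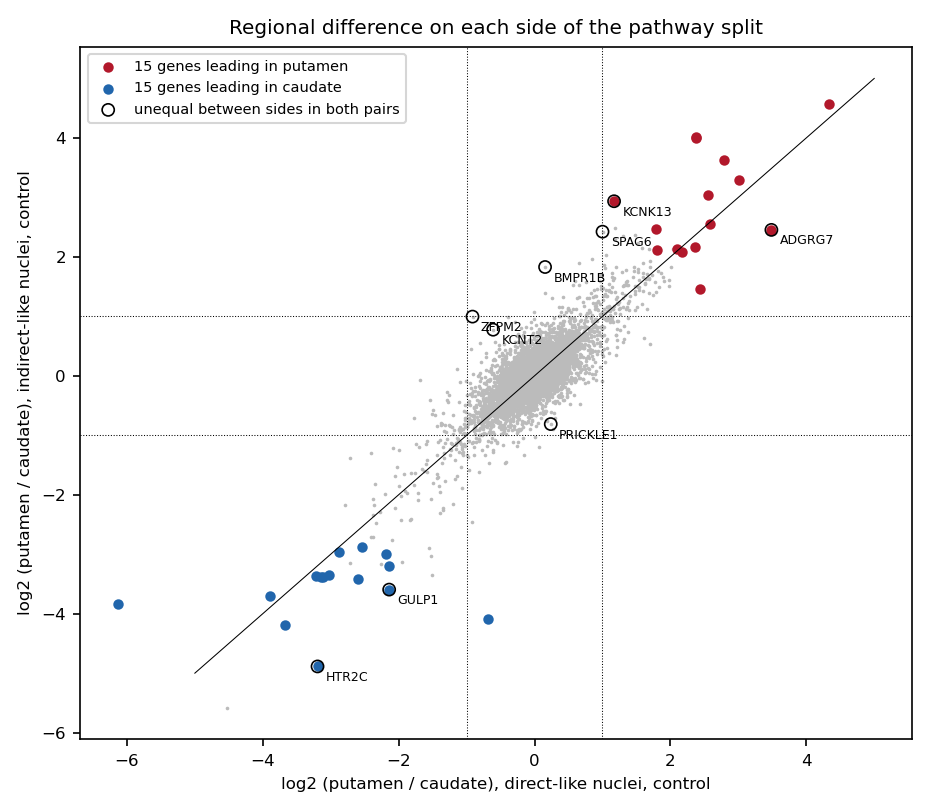
Log2 ratio of putamen over caudate in the control libraries, in direct-like nuclei (horizontal) and indirect-like nuclei (vertical), with dotted lines at 2-fold and a line of equal ratios. Grey points are genes with at least 100 UMIs on both sides, and the leading genes are drawn at any count. The 15 leading genes of each direction lie past 2-fold on both sides except EYA4, and the ringed genes differ between the sides in the control and the PD pair.

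Gene lists are described by their counts past 2-fold, to be read against the 1.92% of all 12483 genes higher in putamen and 1.83% higher in caudate, and against the 6279 of 12483 genes that were lower in putamen to any extent. No list was tested, and a count near those shares is not a result about the list. Dopamine receptors differed by type. DRD3, the D3 receptor, was at 44.9 CPM in putamen and 98.2 in caudate (log2 ratio -1.13), and DRD2 at 286.3 and 177.2 (0.69). DRD1 was at 2.02 and 2.26, too few UMIs to compare. Of 27 measured genes of striatal dopamine and cAMP signalling, DRD3 alone passed 2-fold in either direction, and the median log2 ratio was 0.19, against -0.0017 over all 12483 genes. ADORA2A, at 46.7 and 24.5 (0.93), was near that limit, as was the cyclase ADCY1 of another list, at 140.8 and 75.0 (0.91). Of 5 measured indirect-pathway markers, 4 were higher in putamen. PENK was the exception, at 69.1 and 74.0 (-0.10), and at 40.6 and 63.9 (-0.65) in the PD pair.

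Genes that mark the striosome and matrix compartments, islands and surround of the striatum, form short lists. Of 10 measured striosome genes, 0 were 2-fold higher in putamen and 2 were 2-fold higher in caudate, PDYN and KCNIP1, with a median log2 ratio of -0.62. Of 6 measured matrix genes, 0 and 2 were, with a median of -0.25. KCNIP1, a potassium channel partner, was at 84.6 CPM in putamen and 186.8 in caudate. The matrix genes were CALB1, the calcium buffer calbindin, at 16.5 and 39.6, and GDA. Lower in putamen to any extent were 7 of 10 and 5 of 6, beside 6279 of 12483 over all genes. CALB1 was under 2-fold in direct-like nuclei, at a log2 ratio of -0.96, and KCNIP1 in indirect-like nuclei, at -0.93.

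In a list of genes graded from lateral to medial in rodent striatum, 1 of 5 measured members was higher in putamen and 4 were lower, with a median log2 ratio of -0.40. The list mixes genes high laterally with genes high medially, so this count and median do not measure the gradient. CNR1, the cannabinoid receptor that is high laterally in rodents, was at 252.0 CPM in putamen and 119.8 in caudate (log2 ratio 1.07, and 1.19 in the PD pair). NNAT, neuronatin, was at 46.8 and 179.0 (-1.94, and -2.29), and CRYM, a thyroid hormone binding protein high medially in rodents, at 54.7 and 90.2 (-0.72). WFS1 and GPR155 had log2 ratios of -0.40 and -0.16, and of -0.44 and 0.03 in the PD pair. The rodent side of NNAT, WFS1 and GPR155 was not compared here. Past 2-fold was 1 gene in each direction. CNR1 lay under 2-fold, at 0.95, with at least 20 PDE10A UMIs required.

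Among 44 measured striatal transcription factors, 3 were at least 2-fold higher in putamen and 1 in caudate, against 1.92% and 1.83% of all genes, with a median log2 ratio of 0.07. MEIS1 was at 87.4 and 36.5 CPM, ZNF521 at 81.2 and 36.4, and the third was SOX5. FOXP2, linked to speech and vocal learning, was the 1 higher in caudate, at 68.7 and 174.3 (log2 ratio -1.34). It was mostly a direct-like transcript, at 131.6 in putamen and 302.6 in caudate there against 8.70 and 39.0 in indirect-like nuclei. MEIS1 and ZNF521 were under 2-fold in indirect-like nuclei, at log2 ratios of 0.64 and 0.74. FOXP1, BCL11B and MEIS2, which mark spiny neurons generally, were within 1.39-fold.

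Among neurotransmitter receptors, each family had between 0 and 3 members past 2-fold, with 1.92% of all genes so called for putamen and 1.83% for caudate. Of 16 ionotropic glutamate receptor subunits, the kainate subunit GRIK1 alone passed 2-fold, at 83.5 CPM in putamen and 38.0 in caudate, and GRIN2A was at 513.0 and 317.9. In the PD pair GRIK1 was at 111.7 and 67.0, under 2-fold, and GRIK3 passed at 34.2 and 16.7. No metabotropic receptor of 6 measured passed, and GRM5 was at 1637 and 2187. Of 14 GABA receptor subunits, GABRA3 passed in favour of caudate, at 23.3 and 59.6, and GABRA5 was at 36.5 and 72.4. Of 11 serotonin, acetylcholine and adrenergic receptors, HTR2C passed, HTR4 was at 196.7 and 392.1 (just short of 2-fold), and HTR2A at 10.1 and 18.2. Of 14 opioid, cannabinoid and peptide receptors, CNR1 and TACR1, the substance P receptor, at 38.0 and 18.1, passed in favour of putamen. TACR3 passed in favour of caudate on 39 and 73 UMIs, and was under 2-fold in 6 of the alternatives, among them the PDE10A minimum of 5 UMIs, and in the PD pair (log2 ratio -0.31). With at least 20 PDE10A UMIs required, GRIK1 and TACR1 were under 2-fold, at log2 ratios of 0.97 and 0.89.

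Channels differed in a few members. Of 54 measured potassium channel genes, 5 were 2-fold higher in putamen (KCNK13, KCNH5, KCNT1, KCNH8 and KCNK10) and 2 in caudate (KCNIP1 and KCNG1), against 1.92% and 1.83% of all genes, with a median log2 ratio of 0.05. In the PD pair KCNH8, KCNK10 and KCNG1 were under 2-fold, at log2 ratios of 0.42, 0.71 and -0.56. KCNT1, a sodium-activated channel, was at 70.4 CPM in putamen and 27.5 in caudate. KCNH5, KCNH8 and KCNK10 were higher in oligodendrocyte-marker barcodes of the putamen, at 109.9, 655.2 and 286.0, than in the spiny-neuron nuclei, at 33.0, 42.0 and 17.6. Of 22 calcium channel genes, CACNG5 alone passed, at 11.4 and 5.09, and of 11 sodium channel genes 0 did. CACNG5 was under 2-fold, at a log2 ratio of 0.85, with at least 20 PDE10A UMIs required.

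Adhesion and guidance genes differed in both directions. Of 53 contactins, neurexins and other synaptic adhesion genes, 4 were 2-fold higher in putamen and 6 in caudate, against 1.92% and 1.83% of all genes, with a median log2 ratio of -0.11. The teneurin TENM2 was at 1241 CPM in putamen and 3808 in caudate (log2 ratio -1.62, and -1.76 in the PD pair), and CADM1 at 320.2 and 927.3 (-1.53). LSAMP was at 348.1 and 859.5, and CNTN5 at 137.8 and 330.6. OPCML, an adhesion protein of the same family as LSAMP, went the other way, at 4286 and 2079 (1.04, and 0.71 in the PD pair).

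Of 39 cadherins and protocadherins, 2 were 2-fold higher in putamen and 4 in caudate, against 1.92% and 1.83% of all genes. CDH9 was at 99.2 CPM in putamen and 231.4 in caudate, and PCDH19 at 2.10 and 8.98, beside CDH10 above. CDH6 was at 298.3 and 148.0. CDH19, also higher in putamen, was at 360.7 in oligodendrocyte-marker barcodes of the putamen against 22.5 in its spiny-neuron nuclei, and was under 2-fold in the PD pair (log2 ratio 0.56).

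Of 25 semaphorins, plexins and neuropilins, 3 were called in each direction, against 1.92% and 1.83% of all genes. SEMA3E, a repulsive guidance ligand, was at 30.4 CPM in putamen and 153.5 in caudate, and the semaphorin receptor NRP2 at 31.4 and 83.8. SEMA3A lay just past the limit. The 3 higher in putamen, SEMA7A, PLXNB1 and PLXNB3, had low levels there (5.82, 6.89 and 10.1) and higher ones in its oligodendrocyte-marker barcodes (27.2, 69.1 and 130.8). Of 17 netrins, Slits and receptors, 1 was called in each direction. SLIT1, a guidance ligand, was at 10.7 in putamen and 30.3 in caudate, and the netrin receptor UNC5B at 6.85 and 1.81. UNC5B was at 86.6 in oligodendrocyte-marker barcodes of the putamen. Of 15 ephrins and Eph receptors, EPHA3 was higher in putamen, at 24.5 and 8.98. In the PD pair EPHA3 was at 12.1 and 10.0.

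Second-messenger families had at most 1 member past 2-fold each in the control pair, near the background. Of 19 phosphodiesterases other than PDE10A, PDE4D passed in favour of caudate, at 264.5 and 559.8 CPM, and PDE2A was at 318.3 and 206.9. Of 17 regulators of G-protein signalling, RGS6 passed. RGS7 was at 605.7 in putamen and 1056 in caudate, while RGS7BP, its membrane anchor, was at 285.4 and 170.1. Of 6 adenylate cyclases, 0 passed in the control pair, and ADCY1 passed in the PD pair (log2 ratio 1.01).

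Activity, stress and metabolic genes past 2-fold in the control pair numbered 0 of 10 immediate early genes, 0 of 8 glucocorticoid-response genes, 0 of 9 heat shock genes, 0 of 19 cholesterol synthesis genes, 0 of 47 nuclear-encoded respiratory subunits and 0 of 10 mitochondrially encoded genes. Their median log2 ratios lay between -0.10 and 0.11. With 1.92% and 1.83% of all genes called, counts of 0 in short lists are near the background. This sets no limit on differences between animals, which the pooled libraries cannot show.

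**Figure D5:**
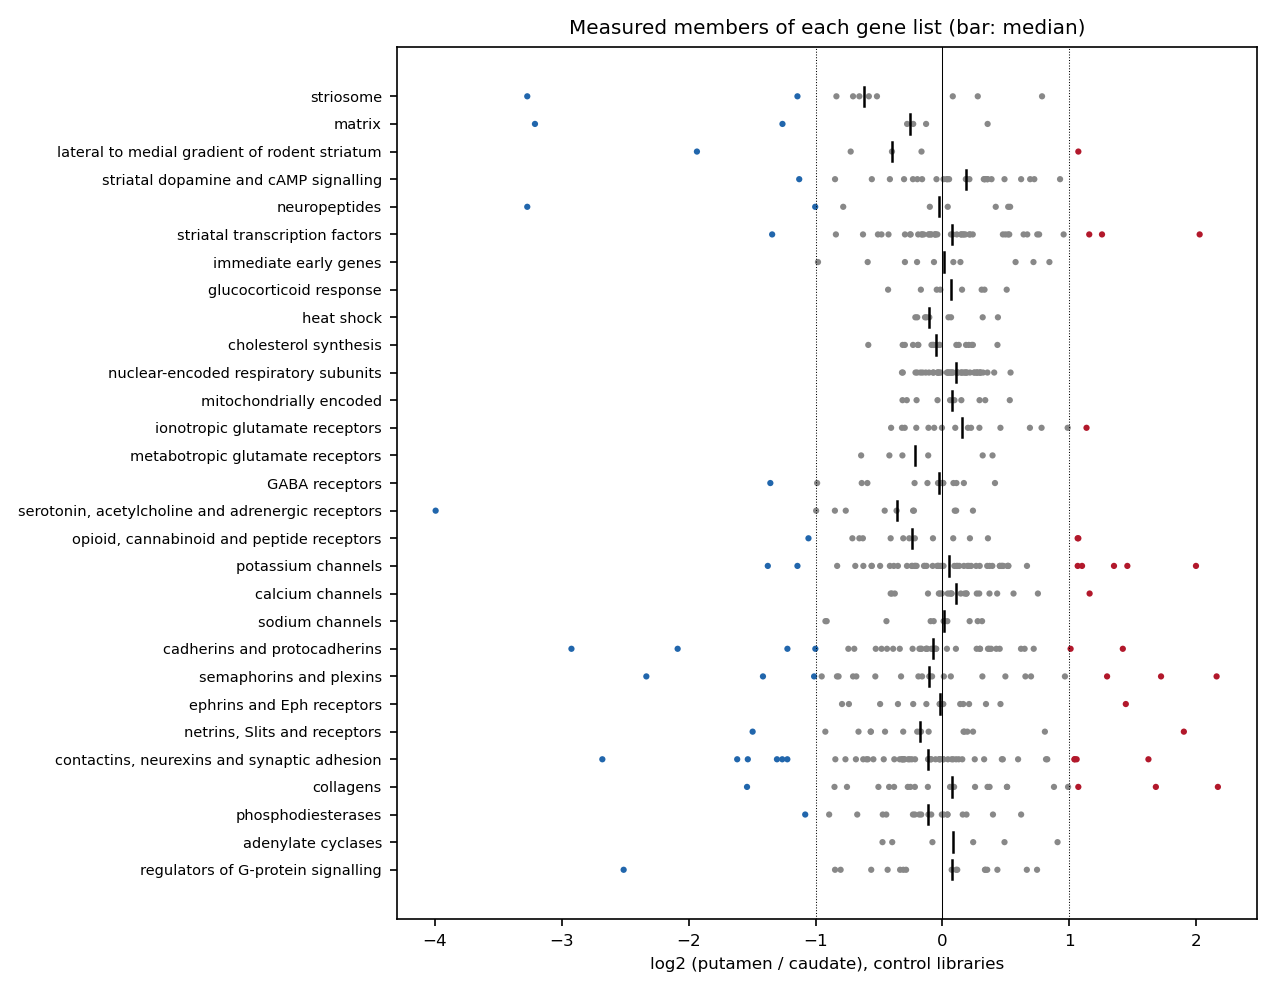
Log2 ratio of putamen over caudate in the control libraries (horizontal, dotted lines at 2-fold) for each measured member of each gene list (rows), with a bar at the list's median. Members past 2-fold are coloured red (higher in putamen) or blue (higher in caudate), and 2 of 10 measured striosome genes and 0 of 47 nuclear-encoded respiratory subunits are among them.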

How the data were processed

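Nuclei from macaque putamen, caudate nucleus and substantia nigra were profiled with 10x Chromium 3′ v3 kits after a commercial nuclei preparation, per the labels' protocols. These protocols name Macaca mulatta, but the organism given is Macaca fascicularis. The deposited matrices hold raw UMI counts per gene and barcode. The submitters' processing notes name Cell Ranger 7.0.1 and a human build, while the gene identifiers are of Macaca fascicularis. The annotation release is not given in the sources used here, so no coordinates are given. Each of the 6 matrices was treated as 1 library.

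Barcodes were selected on 2000 or more UMIs and 10 or more PDE10A UMIs. UMIs were summed per library and divided by their total. Before log2 ratios were taken, 0.5 UMI was added to both sums, and genes with at least 100 UMIs over both were compared. Ratios have exact conditional binomial, levels exact Poisson and shares Clopper-Pearson intervals at 95%. The limit given for a count of 0 is 3 counts of the total. PCR duplicates were collapsed by UMI, and the intervals cover counting error only. Called means past 2-fold. No doublet caller was run and free RNA was not corrected: nuclei with over 0.5% of other cell types' marker UMIs, or the 5% with most UMIs, were left out as alternatives. Oligodendrocyte-marker barcodes had at least 1000 UMIs, 20 marker UMIs and at most 2 of PDE10A. Thinning drew 2000 UMIs per nucleus.

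The 15 leading genes per direction were those whose interval stayed farthest from equality at its closer end, leaving out PDE10A, mitochondrial, ribosomal, hemoglobin and sex-linked genes, markers of other cell types and genes without a symbol. Up to 4 members of each of 32 gene lists with the largest ratios, and the spiny-neuron markers, were also named. The values of some of these genes are not reported here. HOX and hemoglobin genes had 0 measured members, and sex-linked genes were not used here. The direct-like and indirect-like division took 21 genes from the PD libraries and nuclei whose Poisson log likelihood ratio passed 3 either way. The members and lists were chosen with earlier results of these data known, and genes named beyond the rule were chosen after their values were seen. Scripts (Python 3.11.15, numpy 2.4.6, scipy 1.17.1, pandas 2.3.3) were tested on simulated data.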

Additional observations from a re-analysis of the deposited data

Results flagged for a closer look

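The 2 substantia nigra libraries, which no regional comparison used, also held nuclei that met the selection on UMIs and PDE10A. There were 5 such nuclei of 9978 barcodes in SN_CT (0.0501%, exact interval 0.0163 to 0.117) and 26 of 9000 in SN_PD (0.289%, 0.189 to 0.423). Their median totals were 13803 and 8656.5 UMIs, above those of the striatal nuclei.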

How the results depend on the processing

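The 30 leading genes kept their direction in all 420 values over 14 alternatives, and 415 of these were past 2-fold. The genes were chosen for large ratios in the same control libraries that the alternatives use, so this is largely built in. The counts of genes followed the settings. With 500 UMIs required, 117 genes were 2-fold higher in putamen and 104 in caudate, and with no minimum 1355 and 1561. At 1.5-fold, 612 and 672 passed. In nuclei of the fixed direct marker range 54 and 54 passed, and in the indirect range 124 and 96, where fewer UMIs were summed. Without genes over 2-fold higher in oligodendrocyte-marker barcodes, chosen after seeing the data, 85 were higher in putamen. NXPH1 reversed in the direct range, to 0.82. The share of nuclei in the fixed direct marker range, 4.80% in putamen and 4.25% in caudate, moved with depth. It was 7.53% and 7.21% with 5000 UMIs required, 0.263% and 0.349% after thinning, 4.08% in putamen without the deepest 5%, 6.03% in caudate with 20 PDE10A UMIs, and 1.67% and 2.22% from DRD1 against DRD2 alone. Of 406 list medians, 46 moved by over 0.1 on the log2 scale, 39 of them in the pathway subsets. No paired analysis was possible because barcodes carry no replicate. Depth limits genes under about 100 UMIs, and 1 library per region leaves differences between animals unmeasured.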

Other observations

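Some of the most counted genes past 2-fold lay outside every list, and were picked after their values were seen. LDLRAD4, a regulator of TGF-β signalling, was at 1853 CPM in putamen and 910.2 in caudate. The peptidase MME, which cleaves enkephalin, was at 353.0 and 149.9, and the ecto-nucleotidase ENTPD3 at 331.8 and 142.5. In the PD libraries, MME was at 332.2 and 100.6 and ENTPD3 at 462.1 and 112.4.

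Higher in caudate were NRG3, a neuregulin, at 1104 CPM in putamen and 2448 in caudate, and GPC6, a glypican, at 115.2 and 431.6. The cGMP-dependent kinase PRKG1 was at 52.4 and 190.6, and at 50.2 and 438.9 in the PD libraries. MAOB, monoamine oxidase B, was at 47.6 and 116.3.

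A gene without a symbol, ENSMFAG00000046992, had 14 UMIs in control putamen and 372 in control caudate (28.7-fold), with 0 UMIs in oligodendrocyte-marker barcodes of both. In the PD libraries it had 0 and 429 UMIs, at least 87.7-fold higher in caudate against a floor of 3 UMIs per library. Of 3 measured genes in the fixed list for eccentric spiny neurons, 2 were 2-fold higher in putamen, against 1.92% of all genes. They were OTOF, at 91.2 CPM in putamen and 37.4 in caudate, and CACNG5, at 11.4 and 5.09. COL11A1 of that list was at 31.7 and 57.1, and CASZ1 had 26 and 45 UMIs.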
